A study of Mus musculus with 4 samples.

Results

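The adhesion receptors of the integrin and cadherin families were followed in WT and Pim3-/- ESCs of the mouse line E14. The members were the 49 of 55418 genes in the table whose symbols are those of integrin alpha or beta subunits or of numbered Cdh genes, 26 integrins (18 alpha and 8 beta) and 23 cadherins. Not every Cdh symbol is a classical cadherin: Cdh13, Cdh16, Cdh17, Cdh23 and Cdh26 belong to other branches of the superfamily and were kept apart from the type I and type II cadherins. Both groups had the same E14 background, labelled with the strain name 12910la, and were cultured on gelatin in serum medium. That medium contained LIF, which maintains self-renewal. The WT group was 2 samples of unedited cells, and the Pim3-/- group was 2 clonal lines, 1 library each, made with CRISPR/Cas9 and a pair of sgRNAs directed at exons 4 and 6 of Pim3, a serine/threonine kinase gene. Effects of the knockout and differences between single clones cannot be told apart in this design, and p-values measure the spread between these 4 cultures.

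Integrins are heterodimers of an alpha and a beta chain that hold cells to the extracellular matrix, to blood proteins or to other cells, and the alpha chain largely sets the ligand. Each alpha chain pairs with few beta chains, and Itgb1 is the partner of most of them. On the inner face of the membrane, talin, kindlins and other adaptors couple integrins to actin. Classical cadherins bind the same cadherin on a neighbouring cell and are tied to actin through catenins. E-cadherin, the product of Cdh1, holds ESC colonies together.

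The 4 libraries held between 22029427 and 25668307 counts in the gene table. Levels are given as CPM, counts per 1e6 counts of the library after TMM scaling, which corrects for a few genes taking a large share of the reads. TMM factors were 0.828 and 0.883 in WT against 1.167 and 1.172 in Pim3-/-, and with library totals alone the median log2 fold change (log2FC, Pim3-/- over WT) of all 18444 tested genes moved from 0.07 to 0.52, a shift of 0.449. Of the ESC markers, 10 of 10 were tested and Pou5f1, the defining factor of pluripotency, had the largest decrease among those called, with a log2FC of -1.12. Of the 10 ESC markers 1 was higher in Pim3-/- (Klf4, log2FC 1.44) and 4 were lower. All 10 lay above 64 CPM, where 5.72% of all tested genes were called higher and 42.2% lower. Pim3 had 4392 and 4953 counts in WT, against 4970 and 4804 in Pim3-/-, with a log2FC of -0.27 (adjusted p = 0.251) that was 0.19 with library totals. This count takes in the whole gene, including exons that were not targeted, so it does not check the labels, and directions are those between libraries as labelled.

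Of the 49 genes, 30 passed the filter on low counts and were tested, 20 integrins and 10 cadherins. In Pim3-/- ESCs, 5 integrin genes were upregulated and 1 was downregulated at a p under 0.05 after Benjamini-Hochberg adjustment over all genes, in the quasi-likelihood test of edgeR. Of all tested genes, 33.8% passed in that fit, 17.6% as higher and 16.2% as lower. No cadherin passed in either direction in this test. At an unadjusted p under 0.05, 2 cadherins were higher and 0 lower, and the Wald test of DESeq2 called 1 higher (Cdh22) and 0 lower. The integrin genes that rose were Itga5, Itgav, Itga2b, Itga7 and Itgb4, and the one that fell was Itga1. Only Itga2b and Itga7 rose and only Itga1 fell by at least 3-fold, where 8.47% of all genes were higher and 1.38% lower past that threshold. Both Pim3-/- libraries lay above both WT libraries for 10 of the 30 members and below them for 7, while 13 overlapped. Across all tested genes, 38.3% lay above and 34.2% below. The median log2FC was 0.32 for the integrins and 0.37 for the cadherins, against 0.07 for all tested genes. Expression levels were not matched in this comparison. Without WT replicate 1 or without WT replicate 2, none of the members passed, and the calls over all genes dropped from 3246 higher and 2987 lower to 402 and 373 or to 585 and 1061. At an unadjusted p under 0.05, 3 members were higher and 0 lower without WT replicate 1, and 5 were higher and 2 lower without WT replicate 2.

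**Figure D1:**
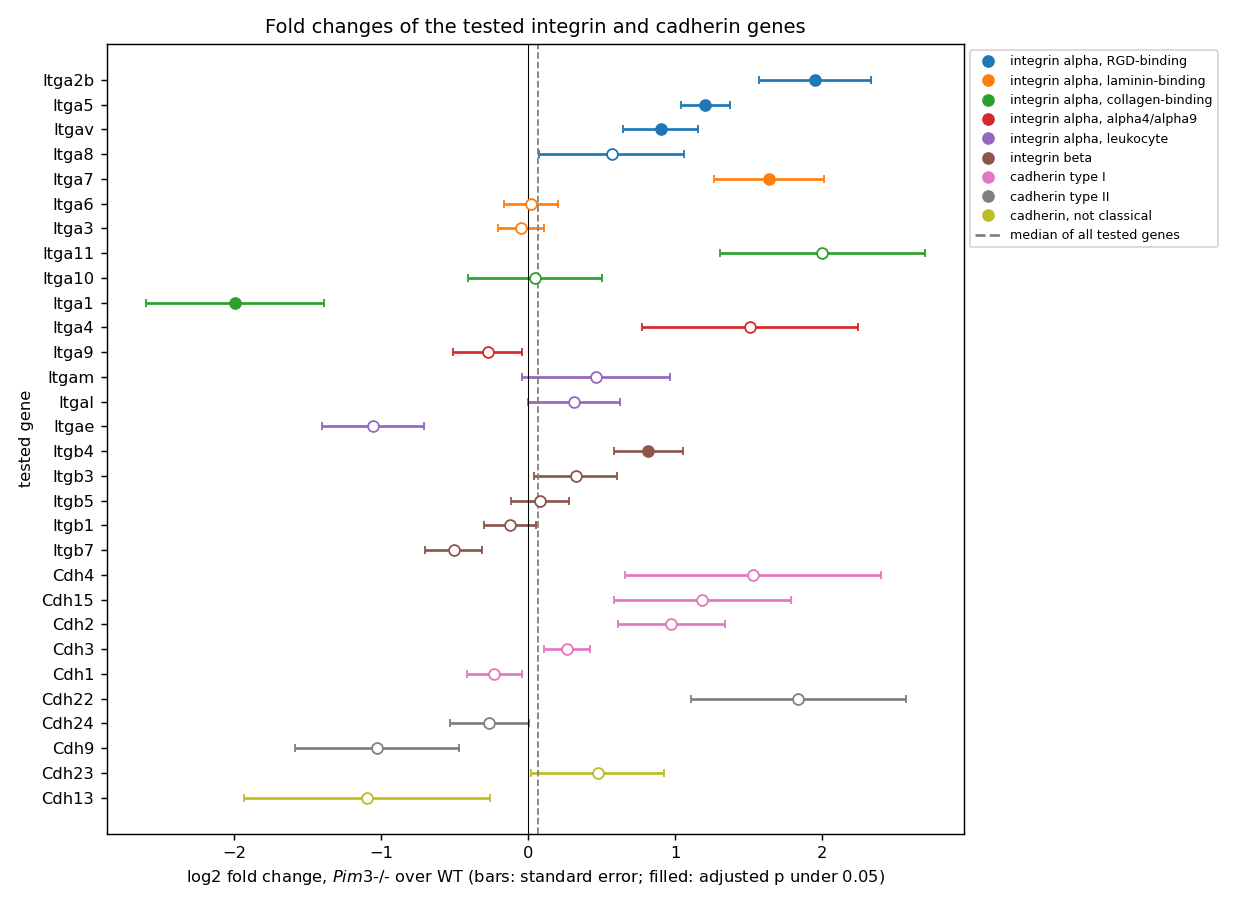
Log2FC (Pim3-/- over WT) of the 30 tested integrin and cadherin genes, ordered by group, with standard errors as bars and 2 libraries per group. Filled points mark the 6 integrin genes with an adjusted p under 0.05, and the dashed line is the median of all tested genes at 0.07. Cadherin points reach from -1.10 to 1.84 and all are open.

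Itga5, the alpha chain of the main fibronectin receptor, had the smallest adjusted p of all members and was the only member at 64 CPM or more that rose. It had 1105 and 1373 counts in WT replicates 1 and 2, against 3472 and 3681 in Pim3-/- replicates 1 and 2. Both Pim3-/- libraries were far above both WT libraries, and the libraries of each group lay close together. The level was 59.1 CPM ± 2.07 (SD, n = 2) in WT and 136 CPM ± 8.98 (SD, n = 2) in Pim3-/-, a log2FC of 1.21 (standard error, SE, 0.17, adjusted p = 0.00467). Without WT replicate 1 or 2 the log2FC was 1.12 or 1.16 (adjusted p = 0.0777 and 0.0578). Itga5 lies on the minus strand at chr15:103344286-103366763 (GRCm38), and no exon of another gene overlaps its exons.

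Itga5 belongs to the 4 alpha chains that recognise the RGD peptide motif (arginine, glycine, aspartate) of fibronectin, vitronectin and fibrinogen. Of these 4 genes, 3 rose, beside 17.6% of all tested genes, and Itga8 did not pass, at a log2FC of 0.57. Their median log2FC was 1.05, and their summed level was 70.9 and 75.6 CPM in the WT libraries against 157 and 175 CPM in the Pim3-/- libraries. Most of each sum was Itga5, at 57.6 and 60.6 CPM in WT and 130 and 143 CPM in Pim3-/-. Itgav, the alpha chain of vitronectin receptors and of activators of latent TGF-beta, had 203 and 283 counts in WT, against 453 and 676 in Pim3-/-. The lower Pim3-/- library was still above the higher WT library, although for Itgav the clones lay further apart than the WT cultures. Its level rose from 11.5 CPM ± 1.34 (SD, n = 2) to 21.6 CPM ± 6.53 (SD, n = 2), with a log2FC of 0.90 (SE 0.26, adjusted p = 0.0316). Itga2b, the alpha chain of the platelet fibrinogen receptor and an early marker of blood progenitors, had 37 and 40 counts in WT, against 249 and 129 in Pim3-/-. The libraries did not overlap, and replicate 1 of Pim3-/- was the highest. The level rose from 1.85 CPM ± 0.117 (SD, n = 2) to 7.16 CPM ± 3.05 (SD, n = 2), a log2FC of 1.95 (SE 0.38, adjusted p = 0.0101). Without WT replicate 1 or 2, Itgav was at 0.74 or 0.95 (adjusted p = 0.285 and 0.164) and Itga2b at 1.96 or 1.80 (adjusted p = 0.0673 and 0.0712). Itga2b lies at chr11:102453297-102470122 (minus strand) and Itgav at chr2:83724397-83806916 (plus strand). Of the exon bases of Itgav, 634 (5.90%) are shared with the opposite-strand gene Gm13684, which had at most 5 counts in any library. Markers of blood and endothelial cells were measured beside these genes. Of the 8, 6 were tested and 2 were higher (Cd34 by 1.19 and Tek by 1.00 on the log2 scale), beside 17.6% of all tested genes. The summed level of the 8 was 135 and 139 CPM in WT and 154 and 224 CPM in Pim3-/-. Most of it was Pecam1, which was not called, at 117 and 122 CPM in WT and 127 and 190 CPM in Pim3-/-. The defining leukocyte marker Ptprc had 0 counts in all 4 libraries, a count that allows up to 3 counts per library (0.112 to 0.156 CPM). In bulk RNA, more cells of a type and more RNA per cell cannot be told apart.

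The 250 bases upstream of the annotated transcription start are given for 2 of the RGD-binding genes that rose, for Itga1, which fell, and for Itgb1, their shared beta partner, from RefSeq on GRCm38.p6. Windows were found for 31 of the 49 members, and for 4 of the 6 called genes. Capitals mark the GC box, searched as GGGCGG or CCGCCC so as to cover both strands, and each line reads 5′ to 3′ toward the start site.
Itga5, chr15:103366792-103367041, minus strand: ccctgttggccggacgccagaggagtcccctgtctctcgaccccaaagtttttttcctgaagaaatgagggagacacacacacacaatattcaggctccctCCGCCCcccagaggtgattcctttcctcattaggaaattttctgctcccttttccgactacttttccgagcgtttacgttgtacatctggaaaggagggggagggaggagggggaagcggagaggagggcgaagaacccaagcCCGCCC
Itgav, chr2:83724147-83724396, plus strand: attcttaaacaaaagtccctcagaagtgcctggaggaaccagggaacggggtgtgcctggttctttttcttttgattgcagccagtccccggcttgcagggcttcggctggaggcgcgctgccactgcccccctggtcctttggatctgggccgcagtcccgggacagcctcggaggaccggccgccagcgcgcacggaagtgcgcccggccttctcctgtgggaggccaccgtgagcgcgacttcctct
Itga1, chr13:115101965-115102214, minus strand: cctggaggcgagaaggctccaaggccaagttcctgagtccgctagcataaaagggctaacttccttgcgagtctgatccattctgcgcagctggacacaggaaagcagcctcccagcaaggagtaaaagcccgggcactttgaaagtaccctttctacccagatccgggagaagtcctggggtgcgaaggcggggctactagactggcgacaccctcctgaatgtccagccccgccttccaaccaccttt
Itgb1, chr8:128685404-128685653, plus strand: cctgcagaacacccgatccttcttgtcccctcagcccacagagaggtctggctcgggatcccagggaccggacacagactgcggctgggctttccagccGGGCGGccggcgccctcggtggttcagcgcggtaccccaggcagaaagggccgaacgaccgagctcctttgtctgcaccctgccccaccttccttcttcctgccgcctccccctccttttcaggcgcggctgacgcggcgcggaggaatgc
The Itga5 window held 2 GC boxes, the Itgb1 window 1, and the Itgav and Itga1 windows 0. A GC box was found in 34.3% of the windows of member genes and in 32.7% of all 32851 windows in the table. The E-box CACCTG or CAGGTG, a sequence bound by the Snail and Zeb repressors, occurred in none of the 4 windows, in 22.9% of the windows of member genes and in 17.2% of all windows. These matches describe the letters of the windows and are not evidence of binding.

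**Figure D2:**
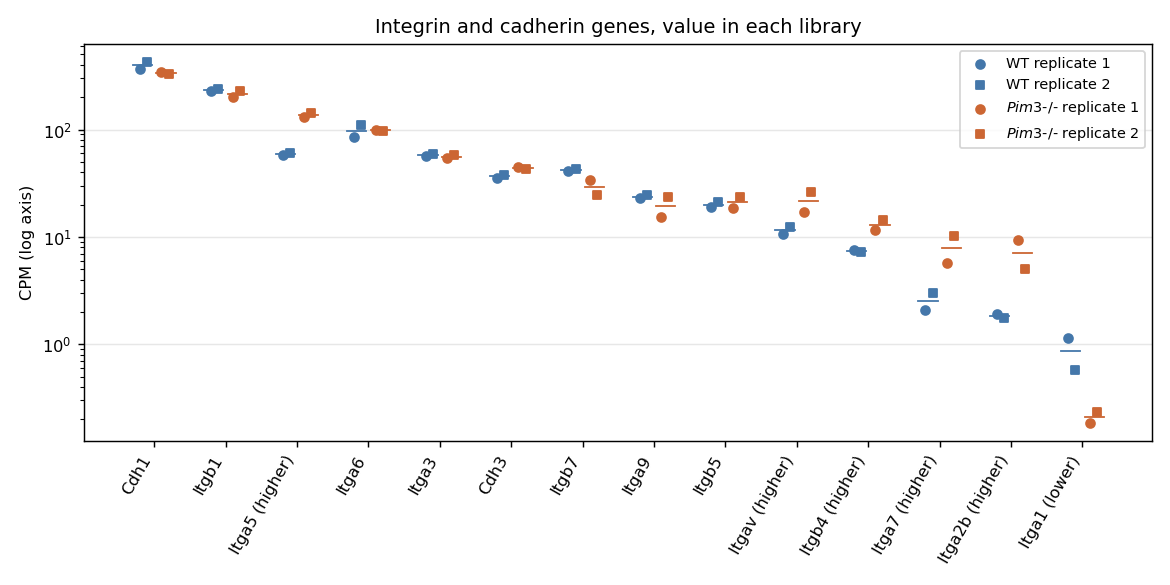
CPM (log axis) in each of the 4 libraries for the 14 members with a call or a mean of at least 10 CPM, ordered by level, with circles for replicate 1, squares for replicate 2 and bars for the group means. Itga5, Itgav, Itgb4, Itga7 and Itga2b have both Pim3-/- libraries above both WT libraries, and Itga1 has both below.

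The laminin-binding alpha chains moved unequally. Itga7, best known as the laminin receptor chain of muscle, had 40 and 68 counts in WT, against 153 and 263 in Pim3-/-. Even the lower Pim3-/- library had more than the higher WT library. Its level rose from 2.54 CPM ± 0.646 (SD, n = 2) to 7.96 CPM ± 3.16 (SD, n = 2), a log2FC of 1.64 (SE 0.38, adjusted p = 0.0160, and 0.146 or 0.0635 without WT replicate 1 or 2). Itga7 lies at chr10:128933818-128958282 (plus strand) and shares 9 exon bases with Mettl7b on the opposite strand, which had 3 counts or fewer in each library. The abundant laminin-binding chains did not pass. Itga3 had 1090 and 1340 counts in WT, against 1457 and 1483 in Pim3-/-, with a log2FC of -0.05 (SE 0.16), which turned to 0.40 with library totals. Itga6, a chain often used as a stem cell surface marker, had 1621 and 2482 counts in WT, against 2630 and 2523 in Pim3-/-. Its WT libraries lay on both sides of the Pim3-/- libraries in CPM, and its log2FC was 0.02 (SE 0.18), a value of no stable sign, as it was -0.02 with the size factors of DESeq2 and 0.46 with library totals (adjusted p = 0.101).

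Collagen-binding alpha chains were scarce. Itga2 had 0 counts in all 4 libraries, which allows up to 3 counts per library. Itga1, a collagen IV receptor chain, had 22 and 13 counts in WT, against 5 and 6 in Pim3-/-. Its libraries did not overlap, but all of them were near the lower end of what could be measured. The level fell from 0.860 CPM ± 0.406 (SD, n = 2) to 0.210 CPM ± 0.0321 (SD, n = 2), a log2FC of -2.00 (SE 0.61, adjusted p = 0.0389). This call was lost with library totals (-1.54, adjusted p = 0.0702), with the DESeq2 Wald test (-2.08, adjusted p = 0.115), without the low-count filter (-2.03, adjusted p = 0.0525), and without WT replicate 1 or 2 (-1.48 or -2.50, adjusted p = 0.447 and 0.121). Itga1 lies at chr13:114953096-115101964 (minus strand), and 685 of its exon bases (3.68%) are shared with Gm49395 on the same strand, which had 286 to 459 counts per library. Itga11, a receptor chain for fibrillar collagen, had 3 and 2 counts in WT, against 10 and 16 in Pim3-/-. Its log2FC was 2.00 (SE 0.70, adjusted p = 0.0600), and it passed with library totals. Itga10 was at 0.05 on the log2 scale.

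The alpha4 and alpha9 chains and the leukocyte chains gave no call. Itga9, a receptor chain for tenascin and osteopontin, had 442 and 553 counts in WT, against 412 and 613 in Pim3-/-. The Pim3-/- libraries lay apart, at 15.4 and 23.8 CPM, on either side of the lower WT value of 23.1 CPM. The log2FC was -0.28 (SE 0.24, adjusted p = 0.387). It was 0.17 with library totals, -0.02 without Pim3-/- replicate 1 and -0.64 without replicate 2. Itga4 had 9 and 8 counts in WT, against 12 and 49 in Pim3-/-. Its log2FC of 1.51 (SE 0.74, adjusted p = 0.147) thus rested on 1 clone. Of the 5 leukocyte chains, 3 were tested. Itgae, the E-cadherin-binding chain that pairs with Itgb7 on T cells of epithelia, had 241 and 188 counts in WT, against 170 and 94 in Pim3-/-. Both Pim3-/- libraries were below both WT libraries in CPM, and the log2FC was -1.06 (SE 0.35) with an adjusted p of 0.0510, just short of the threshold. Itgae passed with the size factors of DESeq2, with the Wald test of DESeq2 and without the filter. It did not pass with library totals, with a minimum of 10 counts per library or without either WT replicate.

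Among the beta chains 1 of the 5 tested genes rose, a share near the 17.6% of all tested genes. Itgb4, the partner of Itga6 in hemidesmosomes, had 146 and 163 counts in WT, against 310 and 374 in Pim3-/-. The Pim3-/- libraries were clearly apart from the WT libraries. The level rose from 7.40 CPM ± 0.300 (SD, n = 2) to 13.0 CPM ± 2.04 (SD, n = 2), a log2FC of 0.82 (SE 0.23, adjusted p = 0.0327, and 0.265 or 0.300 without WT replicate 1 or 2). Itgb4 lies at chr11:115974709-116008412 (plus strand), and 537 of its exon bases (7.66%) overlap the opposite-strand gene B230344G16Rik, which had 14, 10, 23 and 33 counts in the libraries in the order WT 1, WT 2, Pim3-/- 1 and Pim3-/- 2. Itgb1, the common partner, was the most abundant beta chain, with 4347 and 5439 counts in WT, against 5334 and 5880 in Pim3-/-. In CPM its groups overlapped, and its log2FC was -0.13 (SE 0.18, adjusted p = 0.603), or 0.32 with library totals. Itgb7 had 787 and 968 counts in WT, against 909 and 641 in Pim3-/-. Its Pim3-/- libraries were lower in CPM than the WT libraries, at 29.4 CPM ± 6.49 (SD, n = 2) against 41.9 CPM ± 1.17 (SD, n = 2), and the log2FC was -0.51 (SE 0.20, adjusted p = 0.0800). Without Pim3-/- replicate 1 it was -0.77, and without replicate 2 it was -0.32. Itgb5, a vitronectin receptor chain, had 364 and 475 counts in WT, against 498 and 609 in Pim3-/-, with overlapping libraries in CPM and a log2FC of 0.08 (SE 0.20). Itgb3, the partner of Itga2b and Itgav, was at 0.32 (SE 0.28, adjusted p = 0.404).

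Levels of different genes were compared per kilobase of exon. The summed level of the integrin alpha genes was 41.3 CPM per kb ± 2.47 (SD, n = 2) in WT and 58.0 CPM per kb ± 3.05 (SD, n = 2) in Pim3-/-. The beta genes summed to 79.9 CPM per kb ± 3.21 (SD, n = 2) and 72.0 CPM per kb ± 3.94 (SD, n = 2). In WT the alpha genes were led by Itga5, Itga6 and Itga3, at 12.0, 10.7 and 10.2 CPM per kb, values that differed by less than the spread of Itga6 (SD 1.95). In Pim3-/- Itga5 stood alone at 27.6 CPM per kb, ahead of Itga6 at 10.9 and Itga3 at 9.81 CPM per kb. Its share of the summed alpha level was 29.5% and 28.5% in the WT libraries against 47.2% and 48.1% in the Pim3-/- libraries. The share of Itga3 was 24.6% ± 0.795 (SD, n = 2) in WT and 16.9% ± 0.262 (SD, n = 2) in Pim3-/-, and that of Itga9 was 7.47% and 4.37%, while the CPM of neither gene passed the test. Itgb1 made up 71.5% ± 0.0122 (SD, n = 2) of the beta level in WT and 72.7% ± 2.82 (SD, n = 2) in Pim3-/-, a difference of 1.16 percentage points that is within the spread of the clones. Shares within a family do not depend on the scaling between libraries. The smallest p that an exact two-sided permutation test allows with 2 libraries per group is 0.333, so no test is given for shares or sums.

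**Figure D3:**
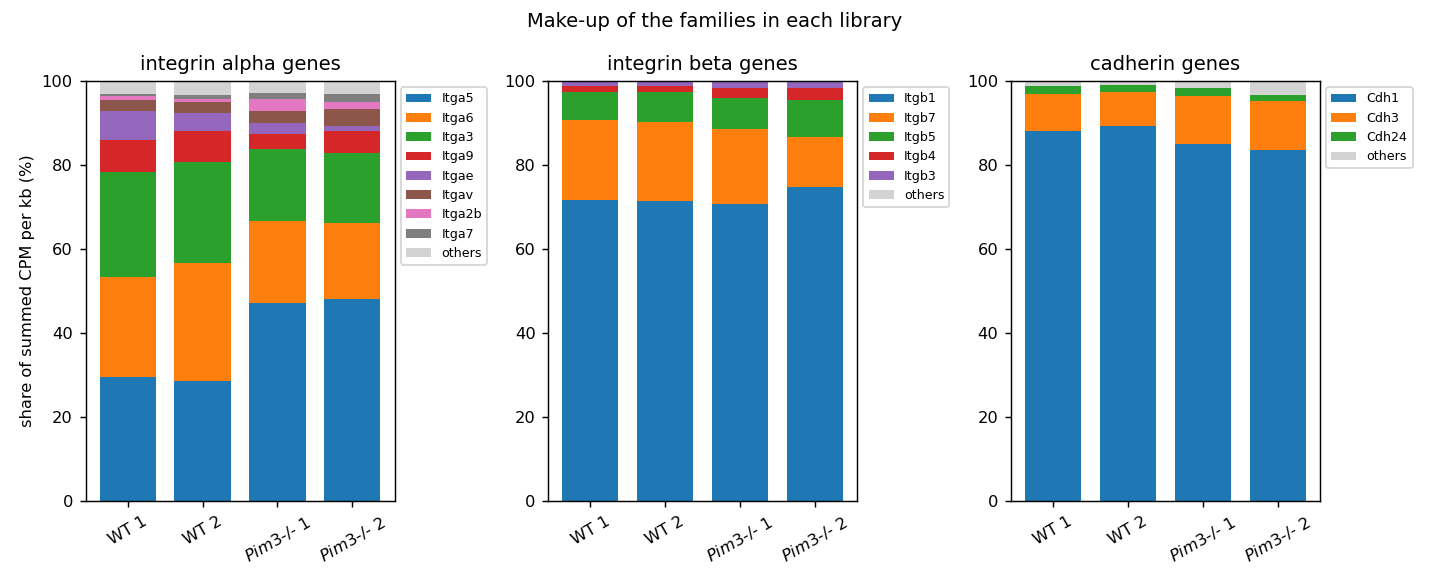
Share of the summed CPM per kb (%) taken by each gene within the integrin alpha, integrin beta and cadherin genes, 1 bar for each of the 4 libraries. Itga5 takes 29.5% and 28.5% of the alpha level in WT and 47.2% and 48.1% in Pim3-/-, while Itgb1 and Cdh1 are the largest parts of their families in every library.

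The cadherin complement was dominated by Cdh1 in both groups. Cdh1 had 7000 and 9649 counts in WT, against 9247 and 8432 in Pim3-/-, the highest of all members. In CPM both Pim3-/- libraries were below both WT libraries, at 336 CPM ± 13.7 (SD, n = 2) against 395 CPM ± 42.8 (SD, n = 2), and the log2FC was -0.23 (SE 0.19, adjusted p = 0.360), but with library totals it was 0.21, so that no direction is given. Its share of the summed cadherin level per kilobase was 88.1% and 89.2% in the WT libraries against 85.1% and 83.7% in the Pim3-/- libraries, a difference of -4.29 percentage points (-4.35 points in counts without length correction). Most of that difference was taken up by Cdh3, P-cadherin, whose share was 8.58% ± 0.421 (SD, n = 2) in WT and 11.5% ± 0.0560 (SD, n = 2) in Pim3-/-. Cdh3 had 676 and 859 counts in WT, against 1192 and 1113 in Pim3-/-, and its libraries did not overlap. The log2FC of Cdh3 was 0.26 (SE 0.16, adjusted p = 0.228), and with library totals it was 0.71 and passed, at an adjusted p of 0.0153. Cdh1 lies at chr8:106603351-106670246 and Cdh3 upstream of it at chr8:106510891-106557297, both on the plus strand.

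Cdh2, N-cadherin, which replaces Cdh1 in many cells that leave an epithelium, was scarce. It had 31 and 32 counts in WT, against 70 and 86 in Pim3-/-, without overlap between the groups. The level was 1.51 CPM ± 0.145 (SD, n = 2) against 2.98 CPM ± 0.504 (SD, n = 2), with a log2FC of 0.97 (SE 0.36) that did not pass (adjusted p = 0.0721). It passed with library totals and when every library had to hold 10 counts or more. The other type I cadherins tested, Cdh4 and Cdh15, reached log2FC values of 1.53 and 1.18 with SEs of 0.87 and 0.60. Of 13 type II cadherins 3 were tested, and Cdh22 had 13 and 23 counts in WT, against 27 and 132 in Pim3-/-. The Cdh22 signal was high in Pim3-/- replicate 2 alone, at 5.11 CPM against 1.01 CPM in replicate 1 and in WT replicate 2. Its log2FC was 1.84 (SE 0.73, adjusted p = 0.0875). Of the 5 Cdh genes outside the classical branches, Cdh13 and Cdh23 were tested, at -1.10 and 0.47, with SEs of 0.84 and 0.45. The library of Pim3-/- replicate 1 had 2 counts of Cdh13, where the other 3 libraries had 20 to 25. Fits without 1 Pim3-/- library take their spread from the WT pair, so the cadherins that passed there are not named.

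The 19 untested members, 6 integrins and 13 cadherins, had few counts. Of all members, 12 had 3 counts or fewer in every library, 5 integrins and 7 cadherins, so that differences between the groups were not detectable at this depth. Among the remaining untested genes, Cdh6 had 1 and 1 counts in WT, against 18 and 8 in Pim3-/-, a ratio of scaled counts of 10.4 with a 95% exact counting interval from 2.59 to 90.0. Cdh5, the endothelial VE-cadherin, had 3 and 2 counts in WT, against 21 and 6 in Pim3-/-, a ratio of 4.30 (95% interval 1.63 to 14.3). Cdh20 had 0 counts in both WT libraries and 4 and 13 in Pim3-/-, and was at least 2.26-fold higher when the WT level is set at 3 counts per library. These 3 genes were named after their values were seen. Ratios were computed only for members with a mean of at most 3 counts in WT and of more than 3 in Pim3-/-. The rule thus favoured high ratios and could show no clear fall. Cdh18 and Cdh26, also untested, met it with 95% intervals of 0.742 to 34.1 and 0.716 to 251, which include 1. Such intervals cover counting error only and leave out the difference between clones.

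Differences between the libraries of 1 group were counted as well. Among the 30 tested members, 5 differed at least 2-fold between the Pim3-/- libraries (Itga4, Itga10, Cdh4, Cdh13 and Cdh22), which is 16.7%, against 11.0% of all tested genes. Between the WT libraries 2 members did (Itga1 and Cdh4), which is 6.67%, against 6.63% of all genes. All of them had under 10 CPM. Over all genes, log2 CPM had a correlation of 0.994 for the WT pair and 0.973 for the Pim3-/- pair, and genes are not independent of each other. Which replicate number stands for which clone is not stated in the sources used here.

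Fold changes in this comparison varied with expression level over all genes, so members were set beside genes of like level. Of all genes at 64 CPM or more, 5.72% were called higher and 42.2% lower, with a median log2FC of -0.48. The 4 members at that level, Cdh1, Itgb1, Itga5 and Itga6, had 1 call higher and 0 lower and a median of -0.06. At 16 to 64, 4 to 16, 1 to 4 and under 1 CPM, member medians were 0.01, 0.32, 0.47 and 0.88. Those of all genes in the same order were -0.09, 0.19, 0.51 and 0.87. At 16 to 64 CPM 15.2% of all genes were called higher and 22.4% lower, and of the 6 members there, only Itgav was called, as higher. At 4 to 16 CPM 3 of 7 members were called higher and none lower, against 21.1% and 9.15% of all genes. Below 4 CPM, 0 of 13 members were called higher, with 22.7% of all genes called higher under 1 CPM and 23.3% at 1 to 4 CPM, and the 1 member called lower was Itga1, with 1.52% of all genes called lower under 1 CPM and 3.93% at 1 to 4 CPM.

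**Figure D4:**
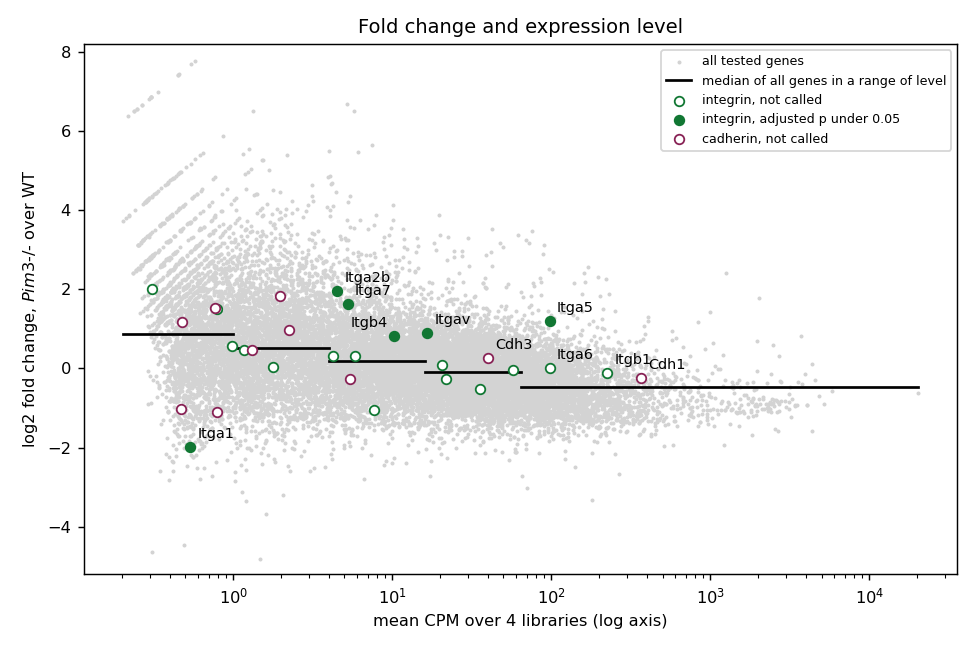
Log2FC (Pim3-/- over WT) against the mean CPM over the 4 libraries (log axis), with all 18444 tested genes in grey, integrins in green and cadherins in purple, and black lines for the median of all genes in 5 ranges of level. The median of all genes goes from 0.87 under 1 CPM to -0.48 at 64 CPM or more, and Itga5 lies at 1.21 above the last line.

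The genes that integrins bind to and signal through were described from lists. Of 28 ligand genes 22 were tested, 12 rose and 1 fell, where 17.6% of all tested genes were higher and 16.2% lower, and the median log2FC was 1.00. Col4a1 and Col4a2, the chains of basement membrane collagen IV, rose from 14.4 CPM ± 3.60 (SD, n = 2) to 131 CPM ± 5.08 (SD, n = 2) and from 5.58 CPM ± 0.220 (SD, n = 2) to 54.5 CPM ± 0.248 (SD, n = 2). Lamc3, a laminin chain gene, had 1 and 0 counts in WT, against 11 and 11 in Pim3-/-. It passed the filter on low counts only through Pim3-/-, so a fall could not have been called. Spp1, which encodes the RGD-containing protein osteopontin, fell by 0.95 on the log2 scale (SE 0.29, adjusted p = 0.0384). Fn1, the gene of fibronectin and the ligand of Itga5, was chosen for mention after its values were seen. Its level was 417 and 482 CPM in WT and 592 and 948 CPM in Pim3-/-, with a log2FC of 0.78 (SE 0.26, adjusted p = 0.0538). Of the 31 adaptor and signalling genes, all tested, 6 rose and 3 fell, with a median log2FC of 0.25. The share that rose was near the 17.6% of all tested genes, and the share that fell was under the 16.2% of all tested genes. Lims2 (PINCH2, a partner of integrin-linked kinase) rose by 2.48 and Tgfb1i1 (Hic-5, a paxillin relative) by 2.45 on the log2 scale. Rsu1, which binds PINCH proteins, fell by 1.00, and Vasp, an actin regulator, fell by 0.85 on the log2 scale.

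Partners of the cadherins were described the same way. Of the 18 catenin and junction genes 16 were tested and 2 rose, a share below the 17.6% of all tested genes, with a median log2FC of 0.01. In edgeR's test 0 fell, beside 16.2% of all tested genes, while the Wald test of DESeq2 called 1 lower. Levels were not matched. The median level of the list was 55.4 CPM, and at 16 to 64 CPM 15.2% of all genes were called higher and 22.4% lower. Those that rose were Ctnnd2, a p120-catenin relative of neural cells, at 1.54 and Ajuba, a LIM protein of junctions, at 0.85. The catenins that bind Cdh1 directly or through beta-catenin, named after their values were seen, did not pass: log2FC values were -0.12 for Ctnnb1, -0.34 for Ctnna1, -0.36 for Ctnnd1 and -0.17 for Jup. Of the 9 desmosomal cadherins 2 were tested and both rose, beside 17.6% of all tested genes. Dsg2 rose from 10.9 CPM ± 1.55 (SD, n = 2) to 32.9 CPM ± 0.756 (SD, n = 2), and Dsc2 had 2 and 6 counts in WT, against 46 and 69 in Pim3-/-. Dsc2 passed the filter on low counts only through its Pim3-/- libraries, so a fall could not have been called. The count of 2 is therefore not read as a result. Of 7 genes for repressors of Cdh1 transcription 6 were tested and 3 rose, beside 17.6% of all tested genes. Snai1 rose by 2.01, Zeb2 by 1.79 and Twist1 by 1.18 on the log2 scale. The Zeb2 call rested on few counts, 5 and 4 in WT against 16 and 24 in Pim3-/- (adjusted p = 0.0493 in edgeR's test). Zeb2 passed the filter only through Pim3-/-, so a fall could not have been called for it either.

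**Figure D5:**
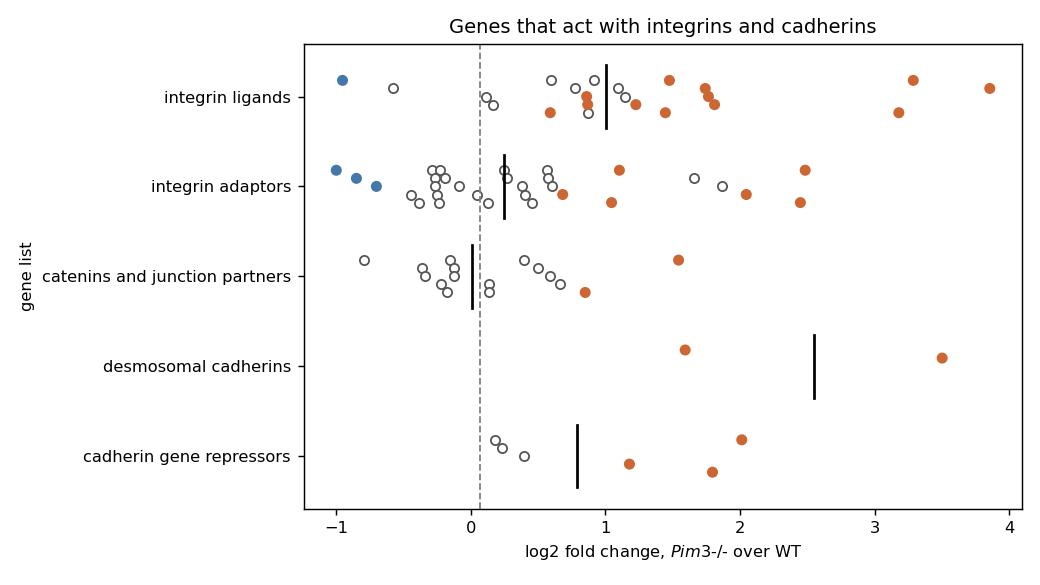
Log2FC (Pim3-/- over WT) of the tested genes in 5 lists of ligands, adaptors, catenins and junction partners, desmosomal cadherins and cadherin gene repressors. Orange and blue points are genes called higher and lower, open points were not called, black bars are list medians and the dashed line is the median of all tested genes at 0.07. The ligand median is 1.00 and the catenin median is 0.01.

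Markers of other cell types were counted in the same fit, in which 17.6% of all tested genes were higher and 16.2% lower. Of 10 primitive endoderm genes 9 were tested and 8 rose, and their summed level was 5.95 and 8.87 CPM in WT and 55.6 and 36.7 CPM in Pim3-/-. Genes of this list are named after their values were seen. Sox7 (3 and 0 counts in WT, 91 and 67 in Pim3-/-) and Sox17 (1 and 5, against 85 and 10) passed the filter only through Pim3-/-. For such genes a fall could not have been called. Pim3-/- replicate 1 exceeded replicate 2 widely for Sox17, Dab2 (189 and 46 counts) and the uncalled Cubn (180 and 10). Hnf4a was higher in replicate 2 (221 and 305). Laminin and collagen IV chains are products of primitive endoderm as well as integrin ligands. Of 10 trophoblast genes 8 were tested and 3 rose, Eomes by 2.24, Gata3 by 2.28 and Ascl2 by 1.47 on the log2 scale. Gata3 had 4 and 4 counts in WT, against 28 and 22 in Pim3-/-, and passed the filter only through Pim3-/-. Summed levels of the list were 146 and 144 CPM in WT and 131 and 154 CPM in Pim3-/-. Most of each sum was Tfap2c, Krt8 and Krt18, which were not called. Their means were 59.7, 40.8 and 31.9 CPM in WT and 45.6, 36.3 and 21.4 CPM in Pim3-/-. Of 8 mesoderm genes 4 were tested and 1 rose, with summed levels of 7.93 and 9.31 CPM in WT and 26.9 and 27.3 CPM in Pim3-/-. Most of that sum was Pdgfrb, the gene that rose, with 95 and 150 counts in WT, against 629 and 630 in Pim3-/-, while the defining mesoderm gene T was at 0.355 and 0.359 CPM. Of 8 neuroectoderm genes 7 were tested, 1 rose and 1 fell, at 168 and 159 CPM against 133 and 143 CPM. The largest part of that sum was Tubb3, the gene that fell, at 127 and 120 CPM in WT and 85.6 and 58.7 CPM in Pim3-/-. Of the 7 tested genes, 5 had a positive and 2 a negative log2FC. Of 8 fibroblast genes 3 were tested, and 0 passed in either direction, in edgeR's test at an adjusted or an unadjusted p under 0.05 and in the Wald test of DESeq2, with summed levels of 252 and 261 CPM against 174 and 253 CPM, and 4 of the 8 genes had 3 counts or fewer in every library. Most of the fibroblast sum was Vim, which was not called, at 230 and 239 CPM in WT and 149 and 233 CPM in Pim3-/-. The part of all these markers in the integrin changes was not tested.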

How the data were processed

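RNA-seq libraries of 2 WT samples and 2 Pim3-/- clones of E14 ESCs were used. The authors deposited raw counts per gene, without normalization. Their methods name Cutadapt, Hisat2, mm10 and Ensembl genes, while the submitters' processing notes name Trim Galore, STAR, featureCounts and GRCm38. Use of strand and treatment of reads with several locations are not given in the sources used here, so overlapping genes are uncertain.

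In edgeR 4.0.16, filterByExpr removed genes with few counts (minimum count 10, minimum total 15), TMM factors were computed, and a quasi-likelihood test was run, with Benjamini-Hochberg adjustment over 18444 genes. Alternatives were DESeq2 1.42.0 size factors and its Wald test, library totals, 2 other filters, a replicate block and omission of each library. Programs ran in R 4.3.3 and Python 3.11.15 and were tested on simulated counts. Exon lengths and overlaps came from GENCODE on GRCm38, and upstream windows from RefSeq. The members and gene lists were chosen with earlier results of these data known. Per-library values were given for members with an adjusted p under 0.05 or a mean of at least 10 CPM, and otherwise for examples from each subgroup. From each other list at most 4 called genes, those with the largest changes in each direction, were named, unless stated. The table of transposable elements was not used here.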

Additional observations from a re-analysis of the deposited data

How the results depend on the processing

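Itga5, Itgav, Itga2b, Itga7 and Itgb4 passed as higher under each alternative except the omission of either WT library. With library totals, 3 cadherins were higher (Cdh2, Cdh3 and Cdh22), 0 integrins were lower, 5 members were at least 3-fold higher and 0 lower, the median log2FC of the members was 0.76 (0.52 for all genes), and signs turned for Cdh1 (0.21), Itga3 (0.40), Itga9 (0.17) and Itgb1 (0.32). With DESeq2 size factors 2 integrins were lower and Itga6 was at -0.0223. The DESeq2 Wald test gave 1 cadherin higher (Cdh22) and 0 members at least 3-fold lower, with Itga6 at -0.0224. Without a filter 1 cadherin was higher (Cdh6), 0 members were at least 3-fold lower, the median was 0.90 over more genes of low count (0.27 for all genes) and Itga6 was at -0.0188. With at least 10 counts required in every library, which removed Itga1, 1 cadherin was higher (Cdh2), 0 integrins were lower, 0 members were at least 3-fold lower and Itga3 was at 0.0299. With a block for the replicate number, 1 cadherin was higher (Cdh22) and 2 integrins were lower (Itga1 and Itgae), but the 2 replicate pairs deviated from their group means with a correlation of only 0.0306, so that the samples share a number and no pairing is shown. With each library left out in turn, 0 to 7 integrins were higher and 0 to 3 lower, 0 to 3 cadherins were higher and 0 to 1 lower, 0 to 5 members were at least 3-fold higher and 0 to 2 lower, the median was 0.16 to 0.49, Itga6 was at -0.21 to 0.13 and Itgb5 at -0.12 to 0.22. In these fits the single library of a group is assumed to vary like the other group. Calls gained in them are not read as results. The difference in Cdh1 share stayed between -5.00 and -3.58 percentage points, while that of Itgb1 was -0.57 points in counts without length correction and -0.83 to 3.15 with a library left out. Causes of these shifts were not tested, and members with few counts are limited by depth.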
